A study of Homo sapiens with 2 samples.

Results

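Replication-dependent histone genes supply the bulk of the histone protein that packages newly copied DNA. Their members were taken by symbol, as the protein-coding genes named H2AC, H2BC, H3C or H4C with a number, together with H1-1 to H1-5, and 69 such genes were found among the 59026 genes to which the transcripts of both libraries could be matched. There were 5 H1, 17 H2A, 19 H2B, 13 H3 and 15 H4 genes. The RNA came from cells of the line HEK293 Flp-In T-Rex, an established human embryonic kidney line with an integration site for transgenes. The cells were grown in DMEM with foetal calf serum, and the labels name no treatment. The samples formed 1 group of 2 libraries, replicate 1 and replicate 2. The labels do not say whether these were separate cultures, so the spread between them may be technical. Total RNA had been depleted of rRNA and was not selected for poly(A) tails.

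Histone genes of this class are switched on when cells copy their DNA and are switched off again afterwards. The core histones H2A, H2B, H3 and H4 form the protein spool of the nucleosome, and the linker histone H1 binds where DNA enters and leaves it. Their mRNAs are the main metazoan mRNAs that end without a poly(A) tail. They end shortly after a small hairpin, which is bound by the stem-loop binding protein SLBP, and the cut that makes this end is guided by the U7 small nuclear RNA. Most replacement histones are instead made throughout the cell cycle from genes with ordinary, polyadenylated mRNAs.

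The hairpin is shown first because it marks these mRNAs as a class. A stem of 6 Watson-Crick base pairs around a loop of 4 bases that begins with TT was searched for within the last 60 bases of the 1-exon transcripts (GENCODE v44, GRCh38). It was found in 59 of the 69 members. Among the canonical transcripts of 19155 protein-coding genes, 180 (0.940%) held such a hairpin, and 59 of those 180 were the members. The following 5 sequences made up all sites in the members, written 5′ to 3′ as DNA with the stem in capitals and the loop in lower case.
36 genes of types H1, H2A, H2B and H3: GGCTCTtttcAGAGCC
8 genes of types H1, H2A, H2B and H3: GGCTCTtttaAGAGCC
1 gene, H2AC20: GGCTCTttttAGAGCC
10 H4 genes: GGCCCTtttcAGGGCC
4 H4 genes: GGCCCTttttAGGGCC

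The stem thus separated H4 from the other types in every member in which a full hairpin was found, whereas the loop varied within each set. The transcript ended a median of 5 bases after the hairpin, and exactly 5 bases after it in 41 genes. A hairpin was found in 5 of 5 H1, 14 of 17 H2A, 15 of 19 H2B, 11 of 13 H3 and 14 of 15 H4 genes. In H2AC11 and H2AC15 the site near the end had 5 of the 6 pairs.
H2AC11: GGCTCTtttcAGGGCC
H2AC15: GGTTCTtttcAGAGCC

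H2AC11 was the H2A gene with the second highest level, with a length-normalised level of 394 in replicate 1 and 422 in replicate 2, whereas the level of H2AC15 was 9.86 and 10.9. The hairpin of H2AC25, H2BC21, H2BC26 and H3C10 lay 390, 1729, 4551 and 769 bases before the end of the listed model, which for these genes runs on past the hairpin. No full or 5-pair site was found in H2BC10, H2BC12L, H3C6 and H4C13. A missing match says only that this pattern is not in the annotated window.

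Promoter sequences from RefSeq (GRCh38.p14) were matched to 63 of the 69 members. In windows of 300 bases, from 250 before to 50 after the start, 3 short motifs were searched on both strands. For 62 members the RefSeq start lay within 50 bases of the GENCODE start of the 1-exon transcript. For H3C6 it lay 957 bases away, and H3C6 is included in the counts that follow. The heptamer TTTGCAT, whose octamer form is known as a site for POU factors, was present in 11 of 16 H2A and 14 of 18 H2B promoters and in 0 of 5 H1, 0 of 11 H3 and 0 of 13 H4 promoters, against 4.46% of 35116 promoters in all. CCAAT, the core of the NF-Y site, was in every H1, H2A, H2B and H3 promoter matched and in 3 of 13 H4 promoters, against 34.6% of all. The motif TATAAA of the TATA box was in 3 of 5 H1, 12 of 16 H2A, 12 of 18 H2B, 9 of 11 H3 and 7 of 13 H4 promoters, against 11.5% of all. Many of the H2A and H2B genes share a promoter region, so their windows overlap and the counts are not independent. These motifs do not overlap each other in the windows shown here.

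The promoters of 3 members are shown, from 150 bases before to 10 bases after the start, with the motifs in capitals on either strand. H2BC12 (chr6:27146846-27147005, minus strand) was among the highest H2B genes, H2BC10 (chr6:26272781-26272940, plus strand) had no count in either library, and H4C14 (chr1:149832507-149832666, plus strand) had the highest level of all members.
H2BC12: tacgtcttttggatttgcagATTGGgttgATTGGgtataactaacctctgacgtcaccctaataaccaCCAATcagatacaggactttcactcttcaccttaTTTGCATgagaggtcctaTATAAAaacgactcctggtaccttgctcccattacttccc
H2BC10: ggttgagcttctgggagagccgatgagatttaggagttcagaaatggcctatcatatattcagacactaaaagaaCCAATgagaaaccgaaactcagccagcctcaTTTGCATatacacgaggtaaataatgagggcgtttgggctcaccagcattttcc
H4C14: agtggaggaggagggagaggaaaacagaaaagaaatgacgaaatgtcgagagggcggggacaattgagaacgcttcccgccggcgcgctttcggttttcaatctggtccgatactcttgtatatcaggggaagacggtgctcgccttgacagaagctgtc

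H2BC12 and H2BC10 both carried the heptamer and CCAAT, and TATAAA was found in H2BC12 and not in H2BC10. H4C14 carried none of the 3 motifs. A match is a description of the letters and not evidence of binding.

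The members were described on a length-normalised scale, called the level. Each estimated count was divided by the length of its transcript, scaled to 1000000 per library and summed per gene, so that levels can be compared between genes. A level of 1 is thus 1 level unit in 1000000. The lengths are those of GENCODE v44, in which 1 of the 69 1-exon transcripts had the version that was counted, so levels rest on lengths that may differ from those behind the counts. Replicate 1 held 25158962 and replicate 2 27143860 estimated counts, of which the members took 188737 (0.75%) and 240062 (0.884%). Of the genes chosen as known to be on in HEK293, 5 of 7 were at 1 or more level units in both libraries, with VIM at 307, while PAX2 (0.694) and NEFM (0.281) were below it. PTPRC, CD3E and ALB were at 0 and APOA1 at 0.237, but HBB stood at 20.6.

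Replication-dependent histone mRNA made up 1.37% ± 0.143 (SD, n = 2) of the length-normalised total, with a summed level of 12674 level units in replicate 1 and 14694 in replicate 2. The sum was carried by few genes. The 5 highest members, H4C14, H2AC18, H1-2, H1-4 and H3C15, held 48.2% ± 0.343 of it. There were 3 members at 1000 level units or more, 23 from 100 to under 1000, 23 from 10 to under 100, 3 from 1 to under 10, and 17 below 1. Of the 69 members, 51 reached 1 level unit in both libraries, and 8 were among the 100 highest protein-coding genes. Over all protein-coding genes 60.3% reached 1 level unit in both libraries.

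**Figure D1:**
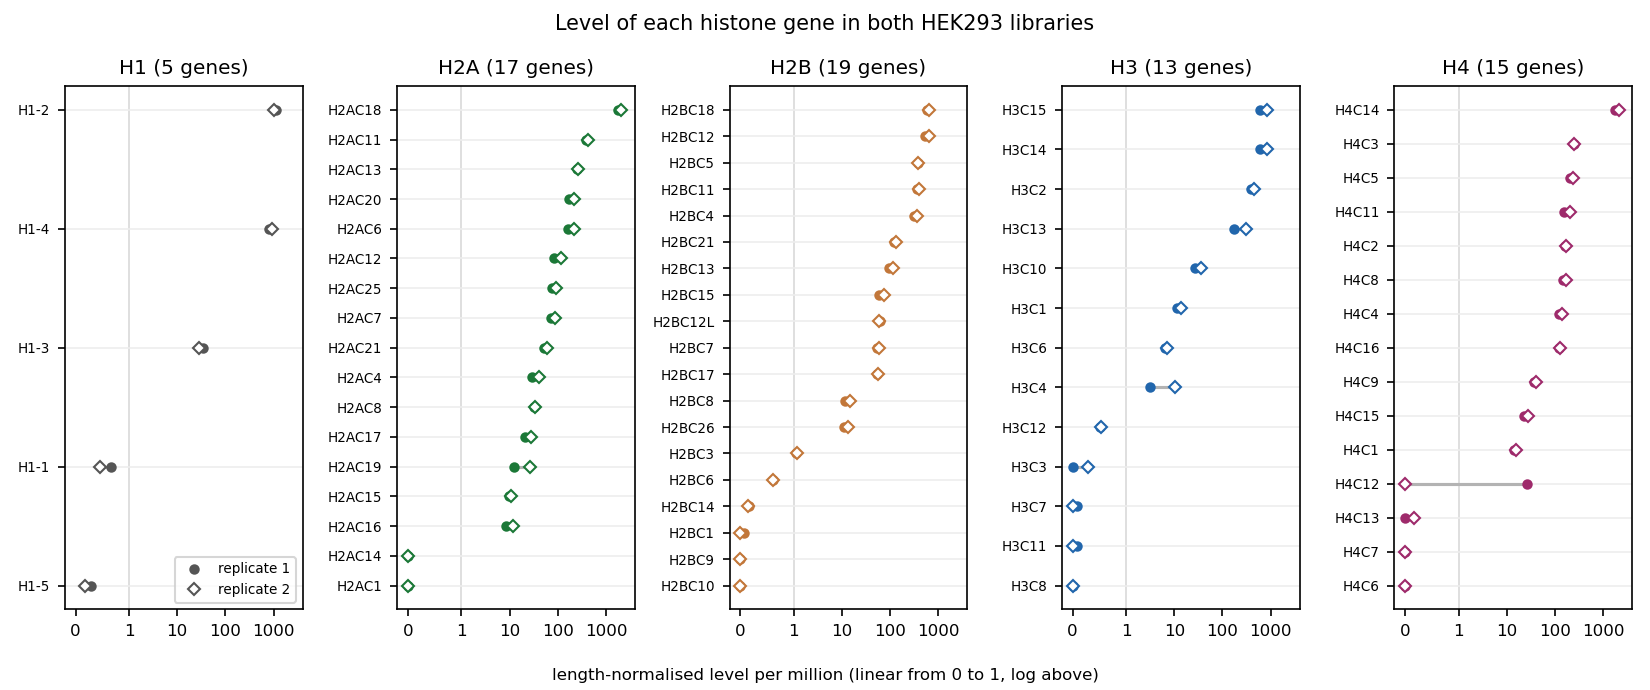
Length-normalised level, in level units, of each of the 69 members, grouped by histone type, with replicate 1 as filled circles and replicate 2 as open diamonds on an axis that is linear from 0 to 1 and logarithmic above. H4C14 and H2AC18 lie furthest to the right, near 2000 level units, and 7 members sit at 0 in both libraries.

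By type, H2A summed to a level of 3194 in replicate 1 and 3645 in replicate 2, with a mean of 3419 ± 319 (SD, n = 2). H4 summed to 3033 and 3568, or 3301 ± 378, and H2B to 2647 and 2951, or 2799 ± 215. H3 summed to 1835 and 2511, or 2173 ± 477, and H1 to 1965 and 2019, or 1992 ± 38.3. H3 was thus the type that differed most between the libraries and H1 the type that differed least. In shares of the members' level these were 25% ± 0.278 for H2A, 24.1% ± 0.249 for H4, 20.5% ± 0.566 for H2B, 15.8% ± 1.84 for H3 and 14.6% ± 1.25 for H1.

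A difference counted as larger than the spread if its order was the same in each library and the means lay further apart than their SDs added together. This held for 6 of the 10 pairs of types. H2A was above H2B by 1.22-fold, above H3 by 1.57-fold and above H1 by 1.72-fold. H4 was above H3 by 1.52-fold and above H1 by 1.66-fold, and H2B was above H1 by 1.41-fold. No neighbours in the order H2A, H4, H2B, H3, H1 differed by more than their spread. The order of H1 and H3 was opposite in the 2 libraries. The order of the types also depended on length. Without division by length 3 of these 6 differences were no longer called: H2A over H2B (1.03-fold), H4 over H3 (1.29-fold) and H4 over H1, where H1 had the higher mean (by 0.03 on the log2 scale) and the order differed between the libraries. In that setting H2B also stood above H4 and H1 above H3, and with a shorter effective length H4 stood above H2A.

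**Figure D2:**
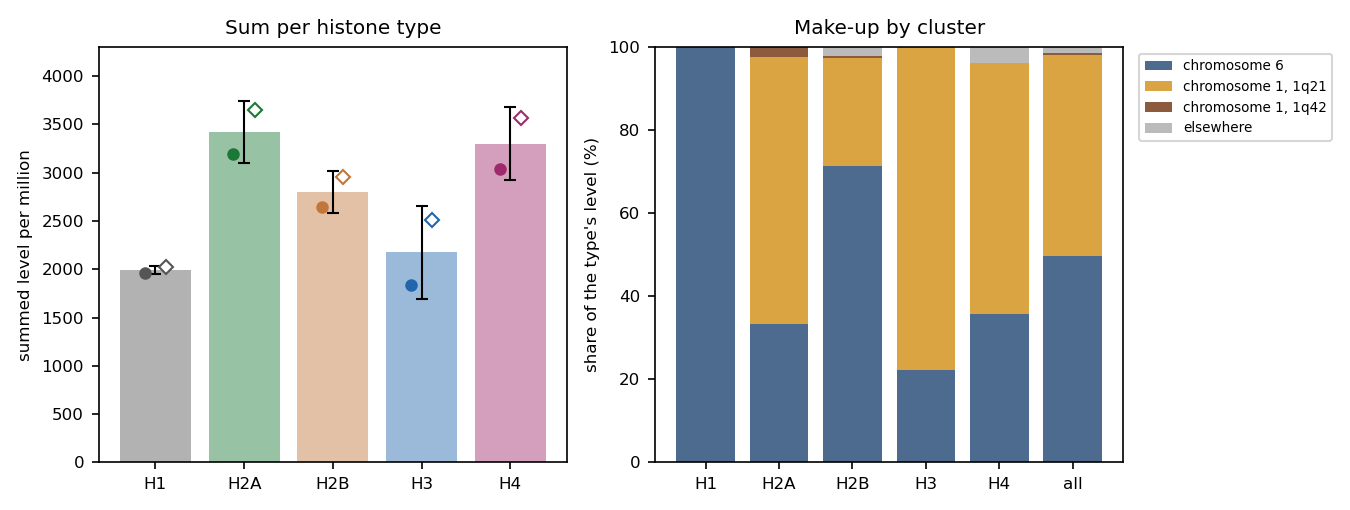
Left, summed length-normalised level of each histone type, with bars for the mean, error bars for the SD and points for replicate 1 (filled circle) and replicate 2 (open diamond). Right, mean share in percent of each type's level that came from each gene cluster, with 1q21 on chromosome 1 giving 77.6% of H3 and none of H1.

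The genes fell into a large cluster on chromosome 6 and smaller groups elsewhere. The chromosome 6 window from 26 to 28 Mb held 52 members and gave 6466 level units in replicate 1 and 7115 in replicate 2, which was 49.7% ± 1.83 of the members' level. The 11 genes at 1q21 on chromosome 1, from H2BC18 to H2AC21, gave 5940 and 7288 level units, or 48.2% ± 1.93. These 11 genes therefore gave a share close to that of the 52. All 11 were at 1 level unit or more in both libraries, as were 36 of the 52.

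The make-up by cluster differed between the types. The 1q21 genes gave 77.6% ± 1.75 of the H3 level, 64.2% ± 0.219 of H2A, 60.5% ± 1.93 of H4 and 26% ± 0.0573 of H2B, while all 5 H1 genes lie on chromosome 6. At 1q42 on chromosome 1, H2AC25 (76.1 and 90.9 level units) and H2BC26 (11.2 and 13.3) together gave 0.699% ± 0.0144. Outside these clusters H4C16 on chromosome 12 reached 120 and 127 level units and H2BC12L on chromosome 21 reached 60.5 and 59.4. H2BC12L shares 98.3% of its words of 50 bases with ENSG00000274559, annotated as an artifact, and both had the same estimated counts (741 and 814), so the level of H2BC12L alone is uncertain. H2AC1 and H2BC1, which lie on chromosome 6 just before the window, were at 0 in both libraries and at 0.0671 and 0 level units. The 4 genes counted outside the clusters, with H2AC1 and H2BC1 among them only because of the 26 Mb limit, gave 1.35% ± 0.110.

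Among the linker histones, a pair of genes gave nearly the whole level. H1-2 (chr6:26055740-26056470, minus strand, 1 exon) stood at 1124 level units in replicate 1 and 1039 in replicate 2, which was 54.3% ± 4.06 of H1. H1-4 (chr6:26156329-26157115, plus strand, 1 exon) stood at 806 and 951, or 44.1% ± 4.28. H1-2 was above H1-4 in both libraries by more than the spread, with a log2 ratio of 0.48 in replicate 1 and 0.13 in replicate 2. Without division by length the difference was no longer called. H1-3 was at 33.7 and 28.6 level units, 1.57% ± 0.211 of H1. H1-1 was at 0.656 and 0.451 level units, from 13 and 10 counts, and H1-5 at 0.287 and 0.171, from 6 and 4 counts. The order H1-2, H1-4, H1-3, H1-1, H1-5 held in both libraries, and the 5 genes code for 5 distinct proteins with no 50-base word in common with another gene.

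Among the H2A genes, H2AC18 at 1q21 (chr1:149842218-149842750, minus strand) stood at 1818 level units in replicate 1 and 2030 in replicate 2. It was 4.72-fold above the next gene, H2AC11. H2AC18 shares every 50-base word with its neighbour H2AC19, which was at 12.3 and 26.3, so reads of the pair could not be told apart by most of their length. Their sum was 1830 and 2056 level units, and both code for the same protein, which gave 56.9% ± 0.622 of the H2A level. After H2AC11 came H2AC13 (247 and 259 level units) and H2AC20 at 1q21 (172 and 216), and the difference of H2AC20 from H2AC6 (164 and 215) was within the spread. H2AC21 at 1q21 was at 52.1 and 60.8. The 17 H2A genes code for 11 distinct proteins.

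The H2B level was spread more evenly. H2BC18 at 1q21 stood at 570 level units in replicate 1 and 630 in replicate 2, and H2BC12 on chromosome 6 at 540 and 655, so their order differed between the libraries. The rank of H2BC18 rested on a spliced transcript without an annotated coding sequence. Its 1-exon transcript was at 205 and 251, below H2BC12, H2BC5, H2BC11 and H2BC4 (320 and 357). This 1-exon transcript shares 74.0% of its words with other genes, and that of H2BC12 shares 57.2%, so these levels are uncertain too. H2BC5 (386 and 386) and H2BC11 (366 and 392) followed and were not separated from each other. H2BC12 was above H2BC5 by 1.55-fold, more than the spread. H2BC21 at 1q21, whose listed model of 2224 bases is far longer than the usual histone mRNA, was at 118 and 135. The 19 H2B genes code for 15 distinct proteins, the largest number of any type.

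The 13 H3 genes code for only 2 distinct proteins, both of 136 residues. The 10 genes on chromosome 6 share a protein and summed to 433 level units in replicate 1 and 530 in replicate 2. H3C13, H3C14 and H3C15 at 1q21 share the other, known as H3.2, and summed to 1402 and 1980, or 77.6% ± 1.75 of H3. H3C14 (610 and 835) and H3C15 (615 and 841) had the same estimated counts as each other in each library, 8347 in replicate 1 and 12788 in replicate 2, and share 99.2% and 100% of their 50-base words. The level of either gene alone is therefore uncertain, and their sum was 1225 and 1676 level units. H3C2 stood at 384 and 462 and gave most of the chromosome 6 sum. H3C13, which shares 71.9% of its words with other genes, stood at 177 and 305.

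H4 was the type in which a single protein is made from the most genes, with 14 of 15 coding for the same 103 residues. The exception, H4C7, codes for 98 residues and had no count in either library. H4C14 at 1q21 (chr1:149832657-149839767, plus strand) stood at 1772 level units in replicate 1 and 2181 in replicate 2, 7.95-fold above the next gene. Its neighbour H4C15 (22.7 and 28.3) shares all of its words with H4C14, and the pair summed to 1795 and 2209. The 1-exon transcript of H4C14 in turn shares all of its words with H4C15. The level of either gene alone, and the 7.95-fold difference, are therefore uncertain. H4C3 (248 and 250), H4C5 (203 and 242) and H4C11 (159 and 209) came next, and their neighbours in this order did not differ by more than the spread. Over all types, 24 of the 47 neighbouring pairs of members at 1 level unit or more differed by more than the spread. No such count over other genes is given here, and some of the pairs hold genes whose counts are hard to separate, such as H3C14 and H3C15.

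Some members were silent or nearly so. H2AC1, H2AC14, H2BC9, H2BC10, H3C8, H4C6 and H4C7 had no count in either library, which allows a level of up to 0.204 to 0.297 level units, depending on the gene and the library (3 counts, counting error only). The other 10 members below 1 level unit reached at most 0.656 in a library. Of these 17 genes, 14 share no 50-base word with another gene in their 1-exon transcript, among them 5 of the 7 at 0. H2AC14 shares 66.3% of its words with H2AC13.

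The silent members lay next to each other along chromosome 6. Between H1-3 and H4C8, the 6 neighbours H4C6, H4C7, H3C7, H2BC9, H3C8 and H2BC10 (chr6:26240393-26273412, a span of 33.0 kb) held 1 count in replicate 1 and 0 in replicate 2. On their flanks H1-3 stood at 33.7 and 28.6 level units and H4C8 at 149.1 and 168. H1-5, H3C11, H4C13 and H3C12 (chr6:27866792-27893106) formed a run of 4 with 14 counts in each library. H2AC14 and H2BC14 formed a run of 2, and H2AC1, H2BC1 and H1-1 opened the order. H3C3 and H2BC6 were low between higher neighbours. H2BC6 had counts only on a transcript with 4 exons.

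**Figure D3:**
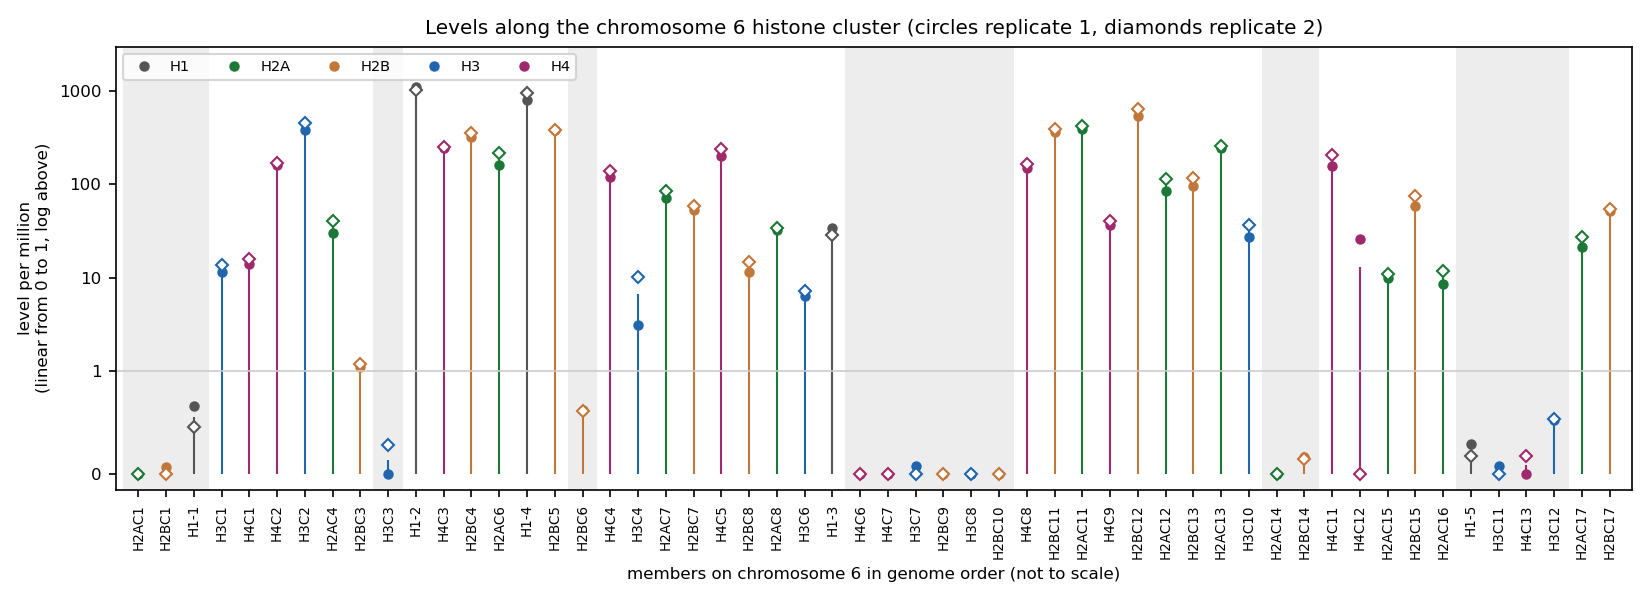
Level of all members on chromosome 6 in genome order, not to scale, with colours for the types, filled circles for replicate 1, open diamonds for replicate 2, stems to the mean, and grey bands over runs of members below 1 level unit in both libraries. The axis is linear from 0 to 1 and logarithmic above, and the widest band covers the 6 genes from H4C6 to H2BC10.

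Many H2A and H2B genes lie head to head, with their starts a short distance apart on opposite strands. There were 12 such pairs of an H2A and an H2B gene, with 194 to 251 bases between the starts. Both genes were at 1 level unit or more in 10 pairs and both were below 1 in 2, and no pair had 1 gene on each side. Within the 10 pairs the H2A gene was higher in both libraries in 6 and the H2B gene in 4. The 6 include H2AC20 over H2BC21, and the listed H2BC21 model of 2224 bases lowers the level of H2BC21. By normalised counts H2BC21 (7294 and 8193) was above H2AC20 (2360 and 2905). In the other pairs the order was the same by normalised counts. The levels differed by 1.08-fold to 6.82-fold, with a median of 2.31-fold.

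H2AC11 and H2BC11 were the closest pair, at 394 and 422 against 366 and 392 level units. H2AC12 was at 85.5 and 114, whereas H2BC12 was at 540 and 655. In the opposite direction, H2AC25 was at 76.1 and 90.9 and H2BC26 at 11.2 and 13.3, although the listed H2BC26 model of 5002 bases lowers its level. Pearson's r of log2(level + 1) was 0.865 and Spearman's rho 0.781 over the 12 pairs. Over the 10 pairs with both genes detected r was 0.535. These are descriptions across genes that share libraries.

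**Figure D4:**
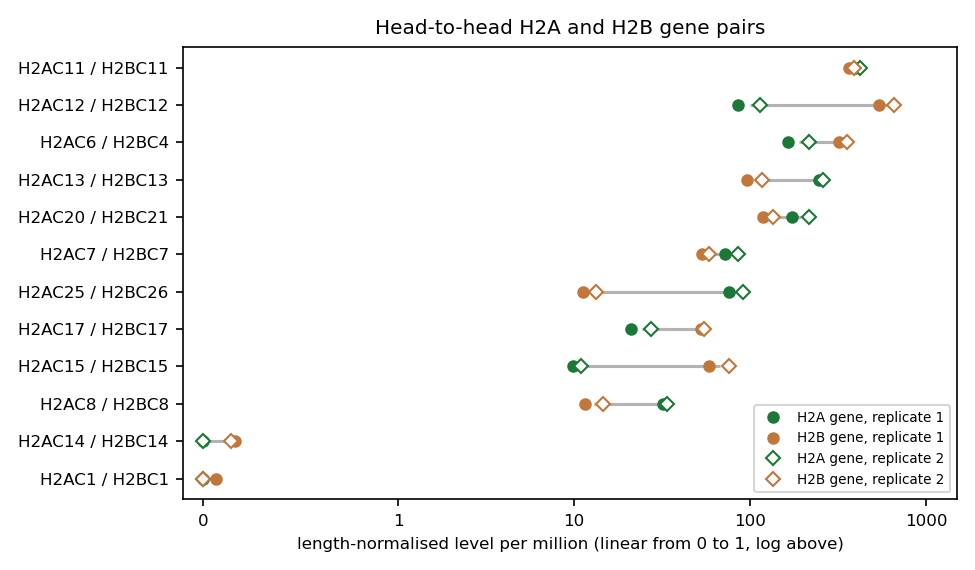
Level of the H2A gene (green) and the H2B gene (orange) in each of 12 head-to-head pairs, with replicate 1 as filled circles and replicate 2 as open diamonds, on an axis linear from 0 to 1 and logarithmic above. The 2 lowest pairs have both genes below 1, and in the other 10 both genes are above it.

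Histone mRNAs of this class are usually unspliced, and most of the members' level was on 1-exon transcripts. Transcripts with more than 1 exon held 4.58% ± 0.752 (SD, n = 2) of the level, and those over 1000 bases held 2.21% ± 0.287. Per count, which favours long transcripts, the shares were 7.74% and 7.77%. The spliced transcripts belonged to 13 genes. H2BC18 stood out, since H2BC18-203, a transcript of 2 exons with no annotated coding sequence, was at 364 and 377 level units, and spliced transcripts were 62.1% ± 2.84 of this gene's level. H2BC18-203 shares 71.4% of its words with other genes, mainly the pseudogene H2BP1, and H2BC18 overlaps FCGR1A on the opposite strand.

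A 2-exon transcript of H4C14 of 1547 bases, annotated as a target of nonsense-mediated decay, was at 113 and 82.6 level units, and spliced transcripts made up 7.25% ± 2.74 of H4C14. In H4C15 they made up 58.4% ± 5.93, in H3C6 38.9% ± 12.95 and in H2BC15 23.7% ± 4.75. The listed transcripts of H4C15 share all of their words with H4C14, so the spliced share of either gene alone is uncertain. The spliced share of H2AC6 differed between the libraries, at 8.25% and 2.37% of the level. H2AC21, H2BC12L, H2BC5 and H2BC6 also overlap a gene on the opposite strand. How strand was treated in the counting is not given in the sources used here, and its part in these values was not tested.

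**Figure D5:**
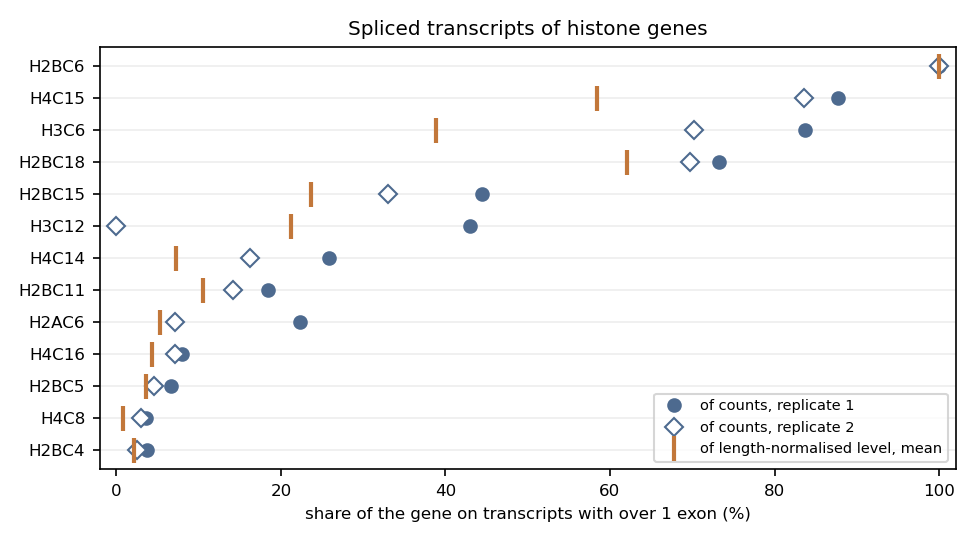
Share in percent of each gene's counts on transcripts with more than 1 exon, for the 13 members with such transcripts, in replicate 1 (filled circle) and replicate 2 (open diamond), with the mean share of the length-normalised level as a vertical tick. H2BC6 is at 100%, and H4C15, H3C6 and H2BC18 follow.

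Against the replacement histones, the replication-dependent genes were higher in both types compared, H2A and H3. The H2A genes were above H2AX, H2AZ1, H2AZ2, H2AJ, MACROH2A1 and MACROH2A2 by 2.29 ± 0.280 on the log2 scale (4.90-fold). The H3 genes were above H3-3A and H3-3B by 2.21 ± 0.499 (4.68-fold). In both types the ratio had the same sign in both libraries and its mean exceeded the SD. Without division by length the log2 ratios were 1.08 and 1.09, and with canonical transcripts only they were 3.30 and 3.36.

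The highest of these replacement genes were H2AZ1, which marks promoters, at 393 and 301 level units, and H3-3B, which codes for H3.3, at 322 and 309. Single replication-dependent genes such as H4C14 and H2AC18 stood above each of these H2A and H3 replacement genes. Of the 14 genes for processing and activation of histone mRNA, 13 were at 1 level unit or more in both libraries. SLBP was the highest of them, at 65.4 and 63.3 level units, and NPAT, the coactivator of histone genes, was at 6.64 and 5.71. The U7 gene RNU7-1 was listed at 0 in both, but no limit is given for it here, and whether the cells hold U7 was not tested. All 11 chaperone and deposition genes were at 1 or more, with RBBP4 at 179 and 143 and NASP, a chaperone of H3 and H4, at 132 and 111. The medians were 13.5 for the processing list, RNU7-1 included, and 23.2 for the chaperones. In all, 60.3% of protein-coding genes reached 1 level unit in both libraries.

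Between the libraries, most members were somewhat higher in replicate 2. On normalised counts, 45 of the 54 members with a mean of at least 10 were higher in replicate 2, against 44.8% of all 19110 such genes. The median log2 difference was 0.17 for the members and -0.06 over all genes. The summed normalised counts of replicate 2 over replicate 1 had a ratio of 1.34 for H3, 1.11 for H2A, 1.10 for H4, 1.09 for H2B and 1.01 for H1. These values compare the 2 libraries and no condition.

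Over 2-fold differences were found for 3 of the 54 members, 2 higher in replicate 2 and 1 higher in replicate 1, beside 5.23% of all genes in either direction, 2.95% higher in replicate 2 and 2.29% higher in replicate 1. H4C12 had 278 normalised counts in replicate 1 and 0 in replicate 2, whereas its near-identical copy H4C11, which holds 92.6% of its words, brought the pair to 185 and 209 level units. H3C4 had 42.7 and 139 normalised counts and H2AC19 181 and 382. H3C4 shares 96.5% of its words with the protein-coding gene ENSG00000282988. The next largest differences were those of H3C13 (2302 and 3887) and H1-1 (13.8 and 9.27). H3C13 shares 71.9% of its words with other genes. When genes with identical proteins were summed, 0 of 28 sums differed over 2-fold.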

How the data were processed

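RNA-seq of rRNA-depleted total RNA from 2 libraries of 1 group was used. For each transcript the deposited tables gave the estimated count that the authors obtained from RSEM. They also gave a deposited normalised signal, equal to that count over a size factor for the library (0.945 and 1.08). The submitters' processing notes name FastQC, STAR 2.7.0d, RSEM 1.3.3 and R 3.6.3. The study names GRCh38. The strand setting is not given in the sources used here. Tables of METTL8 transcripts were left out, as they hold no histone gene.

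Of 206696 transcripts, 202217 were found in GENCODE v44 by identifier, ignoring the version. Of 69 listed 1-exon member transcripts 1 had the same version, so lengths of nearly all of them may differ from the models counted with. The canonical transcripts of H2AC25, H2BC26 and H3C10 are not listed in the tables. Levels are estimated counts over transcript length, scaled to 1000000, with no effective length. With 1 group no test was made, and calls rest on the order in both libraries and the SDs. Between libraries, log2(normalised count + 1) was compared for genes with a mean of at least 10. The 2-fold call was run on simulated counts with planted changes and counting error only. These lack the further spread and shared sequence of the data, so the run cannot show how often real counts are miscalled. Words of 50 bases measured sequence shared between genes.

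The members and lists were chosen with earlier results of these data known. Named were all H1 genes, the 4 highest of each other type, members outside the chromosome 6 cluster at 1 or more, the 5 largest differences between libraries, members at 0, and lists of replacement, processing, chaperone and marker genes; any other gene was named with its values in view. The alternatives were length, transcripts, totals, filters, pseudocount, scaling (edgeR 4.0.16 TMM factors) and each library alone. A planned comparison that needs a withheld item is not reported here. Python 3.11.15, pandas 2.3.3 and numpy 2.4.6 were used.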

Additional observations from a re-analysis of the deposited data

Results flagged for a closer look

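Pseudogenes with symbols of the members' pattern, which are no members, held counts above the limit that a count of 0 allows. The 13 listed pseudogenes had 307 estimated counts in replicate 1 and 477 in replicate 2. These were 0.163% and 0.199% of the members' counts. Of the pseudogenes, 4 were above 3 counts in both libraries. H2BP1, a histone pseudogene with another symbol pattern that is not in this sum, had 688 and 533 estimated counts, more than the 13 together. Of the 13, H2BC27P gave most, with 280 and 333 estimated counts. H2BC19P was at 0 in replicate 1 and at 118 in replicate 2.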

How the results depend on the processing

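The share of the members in the library, 1.37% in the report, was 1.05% with an effective length, 0.844% without division by length, 3.23% of the protein-coding total and 2.93% without small structural and mitochondrial RNA. With transcripts of the same version only it was 0.0705%, since this leaves out nearly all 1-exon transcripts.

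With an effective length the shares were 11.9% for H1, 24.3% for H2A, 28.4% for H4, 0.527% for 1q42, 1.51% elsewhere, 47.3% for the 5 highest members, 3.63% on transcripts with over 1 exon and 1.49% on those over 1000 bases. Without division by length they were 19.7% for H1, 23.6% for H2A, 22.9% for H2B, 19.2% for H4, 1.77% for 1q42, 1.05% elsewhere, 49.5% for the 5 highest, 7.74% over 1 exon and 7.77% over 1000 bases. With protein-coding transcripts only they were 26% for H2A, 18.4% for H2B, 51.7% for chromosome 6, 46.2% for 1q21, 0.729% for 1q42, 49.1% for the 5 highest, 0.515% over 1 exon and 1.34% over 1000 bases. With canonical transcripts only they were 25.7% for H2A, 18.1% for H2B, 51.7% for chromosome 6, 49.9% for the 5 highest and 0 for 1q42, whose canonical transcripts are not listed.

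With an effective length the log2 ratio of H2A to H4 turned to -0.22, and those of H4 to H2B (0.51) and H3 to H1 (0.37) became larger than the spread. Without division by length H4 to H2B turned to -0.25 and H3 to H1 to -0.42, H2B to H3 became larger than the spread at 0.64, and H1-2 to H1-4 fell within it at 0.20. H2A over H2B, H4 over H3 and H4 over H1 were then no longer called. H4 to H2B was also called with protein-coding (0.38) and canonical (0.42) transcripts. Leaving out 1 library gave -0.10 to 0.31 for H3 to H1. The cause of these changes beyond length was not tested. The number of type pairs called ranged from 5 to 8, and members at 1 level unit or more from 48 to 52. Without a filter on low values 8 members differed over 2-fold between the libraries, and with identical proteins summed 0. The replacement ratios of H2A and H3 kept their sign under every alternative run, and their call under those with both libraries. Pairs of types could not be called from 1 library. No paired analysis was possible because there was 1 group.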
